A study of Mus musculus with 111 samples.

Results

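Gnas and Gm20721 are 2 of the 54087 gene rows counted in the RNA-seq libraries, and they were chosen by their place and by their measured share of reads: Gm20721 lies opposite Gnas on mouse chromosome 2 and holds about 5 percent of all gene reads. That share therefore describes the rows and is not a finding. The study asked whether monoamine marks on histone H3 take part in daily rhythms of gene expression in the tuberomammillary nucleus (TMN), a posterior hypothalamic nucleus of histamine neurons. Male and female C57BL/6 mice, aged 8 to 10 weeks on purchase, received bilateral TMN infusions of an adeno-associated virus that expressed GFP, histone H3.3 in its wild-type form, or H3.3 in which alanine replaces glutamine 5 (Q5A), and all 3 vectors carried an IRES-driven GFP that also guided dissection. The H3.3 constructs carried Flag and HA tags, so the GFP group lacks them and lacks the additional histone. Tissue was collected from 21 days after surgery, every 4 h at zeitgeber times (ZT) 0 to 20, where ZT0 is lights on and ZT12 lights off, and libraries were made from single animals, with 1 pair that could not be told apart. The labels name 18 groups of virus and ZT and 3 cohorts. The promoter of the vectors was not given in the sources used here, and dissected tissue holds transduced and other cells together.

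Gnas encodes the stimulatory G protein alpha subunit, which couples receptors to adenylyl cyclase and so raises cAMP. The locus is imprinted and complex: alternative first exons join a shared set of downstream exons, and their transcripts encode the stimulatory subunit, its extra-large form or the neuroendocrine protein NESP55. In several tissues the paternal copy of the stimulatory subunit transcript is silenced, and Nespas is a noncoding RNA read from the other strand near the NESP55 exon. The gene is known for hormone signalling in the hypothalamus, where melanocortin receptors act through it.

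In the GENCODE M21 annotation of GRCm38, Gnas (ENSMUSG00000027523) is a protein coding gene on the plus strand of chromosome 2, from 174284320 to 174346744, with 24 transcripts and 11186 exon bases. Gm20721 (ENSMUSG00000090625) runs on the minus strand from 174330319 to 174346712, is annotated as protein coding from 1 transcript, and has 13 exons with 1484 bases, of which 954 are coding. Of those 1484 bases, 1469 (99.0%) lie opposite Gnas exons. Of its 13 exons, 12 lie opposite a Gnas exon, 4 share both ends with one, and 10 have both ends within 3 bases of one. The shortest Gm20721 intron is 4 bases long. In the other direction, Gm20721 exons cover 13.1% of the Gnas exon bases.

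**Figure D1:**
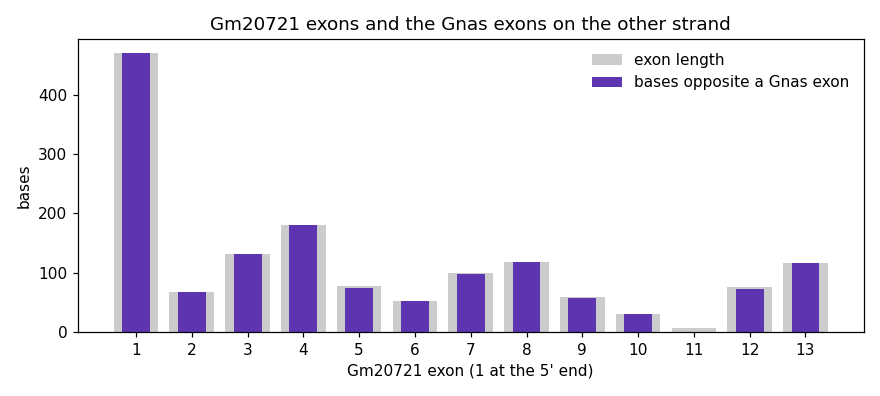
Length of each Gm20721 exon (grey bars, bases) and the part that lies opposite a Gnas exon (purple bars), by exon number from the 5′ end. All exons except exon 11, which is 7 bases long, lie opposite a Gnas exon over all or nearly all of their length.

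A pair of exons from each gene shows how closely the models mirror each other, printed 5′ to 3′ on each gene's own strand, from the GENCODE M21 transcripts. Exon 2 of Gm20721, chr2:174345990-174346057 on the minus strand, has the same ends as a Gnas coding exon on the plus strand. Exon 5 of Gm20721, chr2:174345225-174345301, reaches past the Gnas exon at chr2:174345228-174345301. Capitals mark bases that no part of the opposite exon covers. All 10 exons compared by sequence were complementary over every shared base.
Gm20721 exon 2: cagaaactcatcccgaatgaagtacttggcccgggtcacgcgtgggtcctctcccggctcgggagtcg
Gnas exon opposite exon 2: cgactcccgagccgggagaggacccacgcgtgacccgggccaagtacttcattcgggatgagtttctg
Gm20721 exon 5: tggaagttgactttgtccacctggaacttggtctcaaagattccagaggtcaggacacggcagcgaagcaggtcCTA
Gnas exon opposite exon 5: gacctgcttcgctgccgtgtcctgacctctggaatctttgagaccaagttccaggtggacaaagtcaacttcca

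The strand setting of the counting decides which row a read from these exons enters. Libraries were made with a strand-marking kit, and the reads were counted with htseq-count set to --stranded=yes, which gives a read to the gene on the strand that its first mate reads. In kits that mark strand by degrading the second cDNA strand, the first mate carries the complement of the RNA. Gene rows held 4.03% ± 0.342 (SD, n = 110) of the uniquely placed reads that were in a gene row, in no feature or ambiguous, with a range of 3.49% to 5.63%. Which strand was transcribed was not tested. Gnas, Gm20721 and every other gene given with values below, markers and gene lists included, are names of rows.

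Gene rows summed to 673306 to 3375352 reads per library, with a median of 1474422. One pair of Q5A libraries of cohort 2 at ZT4 differed by less than the sampling noise (3 rows and 6 reads in all) and was counted as 1 sample, which left 32 GFP, 39 H3.3 and 39 Q5A libraries. GFP and H3.3 libraries together form the 71 controls. Hdc, the histidine decarboxylase that defines histamine neurons, had a median of 3.96 normalised reads and was at 0 reads in 11 libraries. Which strand the marker rows count was not tested, so a low Hdc row does not show how much Hdc RNA the tissue held. Summed levels of 6 posterior hypothalamus markers, Hdc among them, ran from 99.6 to 819 normalised reads. Summed levels of 6 striatum markers with a row, of 7 listed, ran from 39.1 to 197 in 107 libraries and from 770 to 1348 in the other 3. In all of those 3, 2 of the 6 hypothalamus markers were at 0 reads. Their summed hypothalamus markers, at 181 to 253, lay within the 99.6 to 819 of the other 107 libraries. Over all libraries, Gal of that list was at 0 reads in 19 and Hcrt in 12. The 3 libraries of highest striatal markers were all of cohort 1. They were H3.3 at ZT12 replicate 1, GFP at ZT12 replicate 3 and Q5A at ZT20 replicate 3. Results that rest on them are given with and without them.

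Gm20721 was the row with the most reads in all 110 libraries. It held 27559 to 212374 reads, with a median of 72801, and 5.13% of all gene reads. Its share of a library's gene reads ran from 2.3% (95% Wilson interval 2.27 to 2.33) to 7.73% (7.67 to 7.80), with intervals that cover counting error only. The Gnas row held 255 to 4422 reads with a median of 1060 and ranked between 37 and 910 within a library. Nespas, the noncoding RNA of the other strand upstream, held 62 to 7819 reads with a median of 1863. The remaining rows inside Gnas, the small RNAs Gm27899, Gm27869 and Gm27849, held at most 2, 9 and 6 reads in a library. In every library the Gm20721 row thus exceeded the Gnas row.

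Per 1000 exon bases, the order of levels was the same. The Gm20721 row had a median of 49057 reads per 1000 exon bases, Nespas 593 and Gnas 94.7. The ratio of Gm20721 to Gnas on this scale had a median of 520 and a range of 201 to 870, and that of Nespas to Gnas a median of 6.44 and a range of 0.865 to 18.3. Gm20721 lay above Nespas by 33.0 times or more in each library, whereas Nespas and Gnas overlapped. In reads without length, Gm20721 held 69.0 times the Gnas reads in the median library, from 26.6 times in GFP ZT12 cohort 2 replicate 1 to 115 times in H3.3 ZT12 cohort 1 replicate 1.

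The virus groups were compared over all ZT by edgeR's quasi-likelihood test with ZT as a covariate and adjusted p-values over all 13891 rows tested. On the scale of read counts divided by size factors (normalised reads), Gm20721 was at 42242, 71347 and 92365 in the lowest, median and highest GFP library, at 41150, 73893 and 115275 in H3.3 and at 32840, 68253 and 133795 in Q5A. Gnas was at 434, 1076 and 1585 in GFP, at 360, 1045 and 2043 in H3.3 and at 433, 1093 and 1786 in Q5A. For both rows the virus groups overlapped over most of their range.

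**Figure D2:**
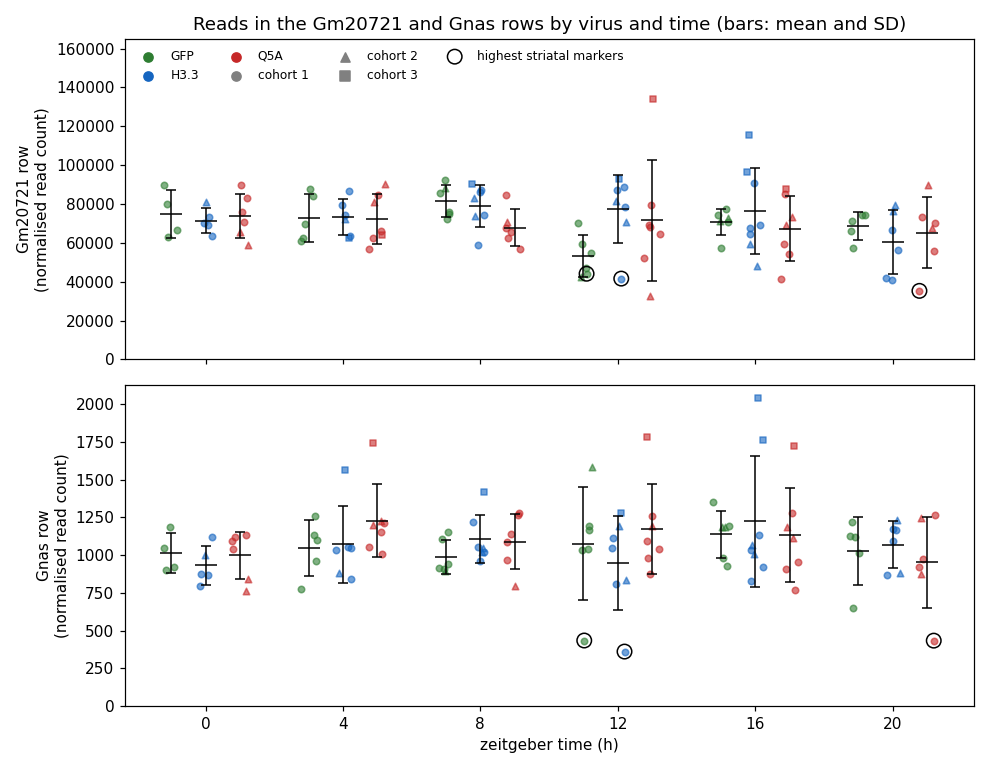
Normalised read count of the Gm20721 row (upper) and the Gnas row (lower) in each library against zeitgeber time in hours, coloured by virus, with cohort as the marker shape, the mean and SD of each group as bars, and the 3 libraries of highest striatal markers circled. The virus groups overlap at every time, the circled libraries are low in both rows, and 5 of the 8 cohort 3 libraries lie above every Gnas value of cohorts 1 and 2.

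Against the controls, Q5A differed by -0.04 ± 0.07 (SE) on the log2 scale in Gm20721 (adjusted p = 0.921, edgeR; 95% interval -0.17 to 0.09) and by 0.06 ± 0.07 in Gnas (adjusted p = 0.892; -0.08 to 0.19). Over all rows, 2 of 13891 (0.0144%) were called at an adjusted p under 0.01. H3.3 minus GFP was 0.08 ± 0.08 in Gm20721 and 0.02 ± 0.08 in Gnas (both adjusted p = 1.00, edgeR), and 0 of 13891 rows (0%) were called there, with 527 at an unadjusted p under 0.05 and 0 called by DESeq2. Q5A minus H3.3 was -0.08 ± 0.08 in Gm20721 (adjusted p = 0.948, edgeR; -0.23 to 0.07) and 0.05 ± 0.08 in Gnas (adjusted p = 0.962; -0.11 to 0.20), beside a background of 0.0144%. Neither row was called in these 3 comparisons, which share samples and whose 95% intervals for both rows lie between -0.23 and 0.23. Nespas, beside them, differed by 0.11 ± 0.16 between Q5A and controls (adjusted p = 0.915, edgeR) and by -0.31 ± 0.19 between H3.3 and GFP (adjusted p = 1.00, edgeR).

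At single times neither row was called, and 0 rows (0%) were called in any of these 12 comparisons at an adjusted p under 0.01. The difference with the smallest p was Gm20721 at ZT12, H3.3 minus GFP: 0.48 ± 0.18 (adjusted p = 0.108, edgeR). GFP libraries at ZT12 were at 42242, 51037 and 70452 normalised reads (lowest, median and highest of 6), and H3.3 libraries at 41613, 81682 and 92990 (of 7). All but 1 of the 7 H3.3 libraries lay above the highest GFP library, and that 1 is circled in the plot of values by time. The highest H3.3 library, at 92990, was from cohort 3, which held no GFP library, and this fit had no cohort term. Without the 3 libraries of highest striatal markers the difference was 0.54 (adjusted p = 0.0221). In the same comparison, 2863 of 9774 rows had an unadjusted p under 0.05. The Gnas row went the other way at ZT12 without being called, at -0.28 ± 0.29 (adjusted p = 0.511, edgeR).

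The next smallest p was Gm20721 at ZT8, Q5A minus controls, at -0.21 ± 0.09 (adjusted p = 0.242, edgeR). Controls there were at 59031, 82991 and 92365 normalised reads (lowest, median and highest of 13) and Q5A at 56703, 66532 and 84412 (of 6), so that the groups overlapped. For Gnas the comparison with the smallest p was Q5A minus controls at ZT4, at 0.25 ± 0.14 (adjusted p = 0.505, edgeR). Controls were at 778, 1046 and 1562 normalised Gnas reads (of 11) and Q5A at 1005, 1203 and 1746 (of 7), and the highest library of each was from cohort 3.

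**Figure D3:**
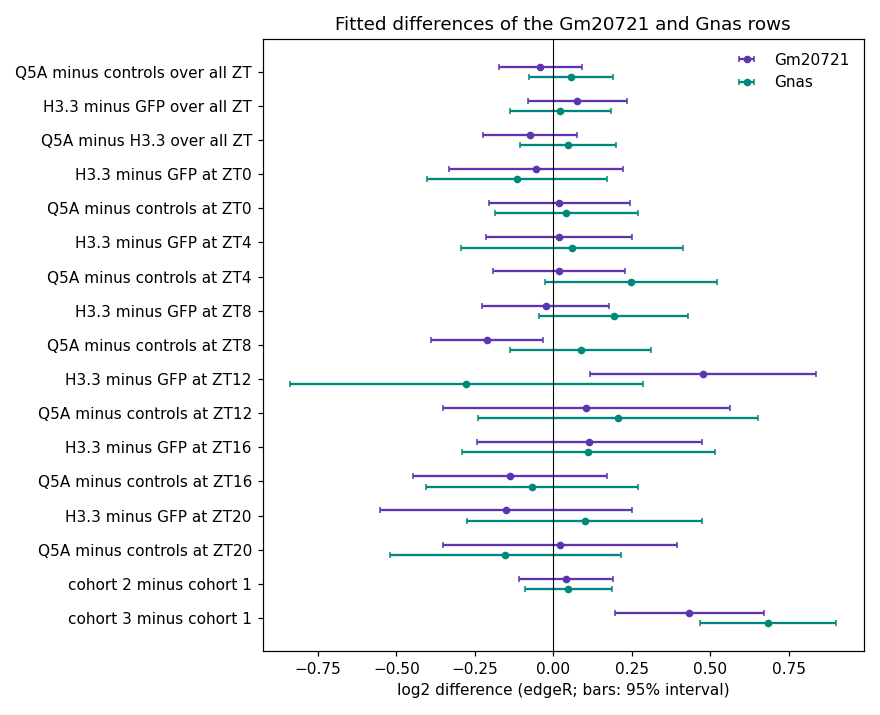
Fitted log2 difference (edgeR) of the Gm20721 and Gnas rows in each comparison of virus, time or cohort, with bars for the 95% interval from its SE. The intervals of the virus comparisons include 0 except for Gm20721 in Q5A minus controls at ZT8 (-0.21) and in H3.3 minus GFP at ZT12 (0.48), and cohort 3 minus cohort 1 lies at 0.43 for Gm20721 and 0.68 for Gnas.

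Rhythm was tested as the study did, by a JTK_CYCLE rank test on normalised reads against 20 templates with periods of 8 to 24 h. In controls, mean Gm20721 levels ran from 64152 ± 13319 (SD, n = 11) at ZT20 to 80246 ± 9434 (n = 13) at ZT8, a 1.25-fold range, and the JTK adjusted p (Bonferroni over templates, exact null) was 0.633. In Q5A, Gm20721 ran from 65316 ± 18351 (n = 6) at ZT20 to 73982 ± 11395 (n = 6) at ZT0, with an adjusted p of 1 by the same exact null. The range over times was close to the spread among libraries at one time.

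Gnas in controls ran from 969 ± 130 normalised reads (n = 9) at ZT0 to 1188 ± 336 (n = 14) at ZT16, and in Q5A from 952 ± 304 (n = 6) at ZT20 to 1228 ± 243 (n = 7) at ZT4, with JTK adjusted p-values of 1 for both by the exact null. Controls at ZT16 included cohort 3 libraries at 2043 and 1764 normalised Gnas reads, and Q5A at ZT4 included that at 1746. No cohort 3 library came from ZT0 or ZT20, and JTK used no cohort term, so time and cohort 3 are not separated here. For comparison, 2017 of 13891 rows (14.5%) were called rhythmic in controls and 412 (2.97%) in Q5A at a JTK adjusted p under 0.05. Neither member was called in GFP alone, where 9.26% of rows were, or in H3.3 alone, where 5.19% were. The smallest of these p-values was that of Gm20721 in GFP (adjusted p = 0.302, exact null), whose GFP libraries were lowest at ZT12. Tested instead by edgeR with ZT as a factor, Gm20721 in GFP passed the threshold (adjusted p = 0.0304), as did 1455 of 12200 rows (11.9%). By that test neither member passed in controls (5.54% of rows), Q5A (0.188%) or H3.3 (0.589%), nor did Gnas in GFP. By JTK without the 3 libraries of highest striatal markers neither member was called in controls (15.9% of rows), Q5A (2.59%), GFP (11.4%) or H3.3 (5.11%). A difference in rhythm between Q5A and controls, tested in edgeR as an interaction with cosine and sine terms, was called at an adjusted p under 0.05 for 17 of 13891 rows (0.122%) and for neither member (adjusted p = 0.935 for Gm20721 and 0.589 for Gnas). That count was 4 (0.0289%) without the 3 libraries of highest striatal markers, 98 without the filter on low counts and 778 in cohort 1 only.

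Both rows were also compared between cohorts. Cohort 1 held 78 libraries, cohort 2 held 24 and cohort 3 held 8 (5 H3.3, 3 Q5A and no GFP). Gnas was at 360, 1044 and 1352 normalised reads in cohort 1 (lowest, median and highest), at 762, 1056 and 1585 in cohort 2 and at 1278, 1734 and 2043 in cohort 3. Of the 8 libraries of cohort 3, 7 lay above the highest Gnas value of cohort 1 and 5 above that of cohort 2. For Gm20721 the values were 35302, 69697 and 92365 in cohort 1, 32840, 72631 and 90399 in cohort 2, and 62726, 91547 and 133795 in cohort 3, where 4 of 8 lay above both other cohorts.

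With virus and ZT as covariates, cohort 2 minus cohort 1 was 0.05 ± 0.07 in Gnas and 0.04 ± 0.08 in Gm20721 on the log2 scale (adjusted p = 0.873 and 0.904, edgeR), where 261 of 13891 rows (1.88%) were called. Cohort 3 minus cohort 1, a comparison added after the values were seen, was 0.68 ± 0.11 in Gnas (adjusted p = 4.45e-07, edgeR) and 0.43 ± 0.12 in Gm20721 (adjusted p = 0.00321), where 2974 of 13891 rows (21.4%) were called. Of these 2974 rows 1407 were called upward, Gnas and Gm20721 among them, and the others downward. Without filtering low counts, the adjusted p of Gm20721 was 0.0269, and without replicate 1 of cohort 1 it was 0.0102, both above 0.01. The share of placed reads in gene rows moved with it, at 3.94% ± 0.219 (SD, n = 78) in cohort 1, 4.15% ± 0.458 (n = 24) in cohort 2 and 4.57% ± 0.364 (n = 8) in cohort 3, and its part in the cohort difference was not tested. Summed marker levels moved too: from cohort 1 to cohort 3 the median went from 616 to 890 normalised reads over 4 neuron markers, from 274 to 401 over 4 microglia markers, from 2069 to 2682 over 5 oligodendrocyte markers and from 251 to 352 over 6 posterior hypothalamus markers. Members of these lists did not all move alike. In medians, Syt1 fell from 139 to 114, Cnp from 844 to 713 and Slc18a2 from 94.3 to 67.0. Mog and Hrh3 changed little, and the other members rose. Of the remaining lists, astrocyte (158 to 207), endothelium (19.8 to 24.6) and striatum markers (83.0 to 112) rose, and pituitary markers did not (69.9 to 68.0). The ranges of cohorts 1 and 3 overlapped for each of these lists, and their part in the result was not tested. Cohort 3 holds no GFP library, so that within it only H3.3 and Q5A can be compared.

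The log2 ratio of the Gm20721 row to the Gnas row, with 0.5 added to each count, does not depend on library size. It was 6.05 ± 0.39 (SD, n = 110) overall and ran from 4.74 to 6.85. Within ZT, Q5A minus controls was -0.12 (permutation test of 100000 draws within ZT, two-sided p = 0.125, adjusted p = 0.249 over 2 comparisons), and H3.3 minus GFP was 0.05 (p = 0.572, adjusted p = 0.572). The ratio was 6.06 ± 0.42 (n = 32) in GFP, 6.12 ± 0.38 (n = 39) in H3.3 and 5.98 ± 0.36 (n = 39) in Q5A, with groups that overlapped. By cohort it was 6.08 ± 0.35, 6.05 ± 0.47 and 5.77 ± 0.37. In the 3 libraries of highest striatal markers it was 6.62 ± 0.25 (n = 3), since Gnas there was at 360 to 434 normalised reads against 647 to 2043 in the other 107.

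Across libraries, 6 relations were computed, on log2(normalised reads + 1) for the rows, and tested by permutation with 100000 draws, for which 1e-05 is the smallest p possible. Because cohort 3 stands apart, values are given within cohorts. Gm20721 and Gnas had Pearson's r = 0.384 (permutation p = 0.00092, adjusted p = 0.0011) and Spearman's rho = 0.0463 (p = 0.686, adjusted p = 0.686) over the 78 libraries of cohort 1. The Pearson relation was 0.317 without the 2 libraries farthest on the Gm20721 axis and -0.0126 (permutation p = 0.916) without the 3 of highest striatal markers, so it rests on those 3. In cohort 2 it was -0.175 (permutation p = 0.412, n = 24), and in cohort 3 it was 0.298 (permutation p = 0.473, n = 8).

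**Figure D4:**
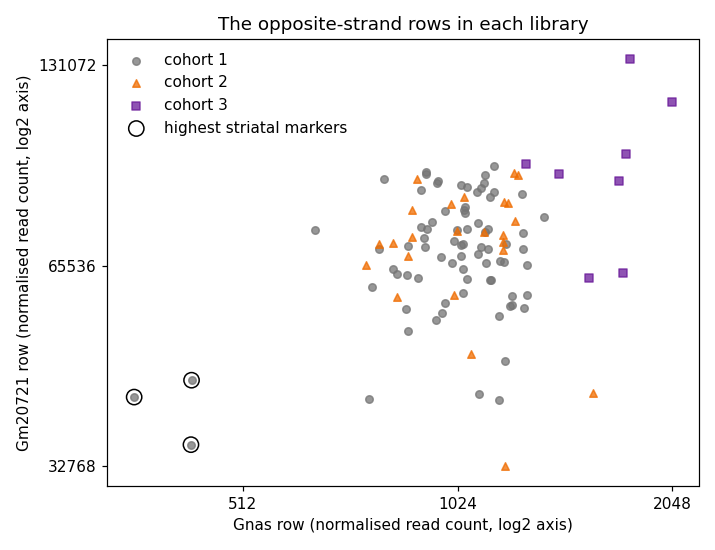
Normalised read count of the Gm20721 row against that of the Gnas row in each library, on log2 axes, with cohort as colour and shape and the 3 libraries of highest striatal markers circled. The circled libraries lie low on both axes, cohort 3 lies at Gnas values of 1278 and above, and the rest form 1 cloud with no slope.

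Nespas moved with both members in cohort 1 and with Gm20721 in cohort 2. In cohort 1 its r was 0.689 with Gm20721 (rho 0.591) and 0.749 with Gnas (rho 0.464), with permutation p at 1e-05 for both r values (adjusted p = 1.5e-05) and at 1e-05 and 2e-05 for rho. Without the 2 farthest libraries r was 0.660 and 0.617, and without the 3 libraries of highest striatal markers 0.574 and 0.508. In cohort 2, r was 0.604 with Gm20721 (permutation p = 0.00307, adjusted p = 0.0046) and 0.352 with Gnas (p = 0.0927, adjusted p = 0.111, permutation). Over the 8 libraries of cohort 3, r was 0.247 with Gm20721 (permutation p = 0.538) and 0.482 with Gnas (permutation p = 0.229). Nespas was at 87.6 to 261 normalised reads in the 3 libraries of highest striatal markers and at 275 to 5920 in the other 107.

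The share of placed reads that fell in gene rows moved with the Gnas row and with the ratio. In cohort 1 its r was 0.614 with Gnas (rho 0.689) and -0.833 with the log2 ratio of Gm20721 to Gnas (rho -0.784), all at a permutation p of 1e-05 (adjusted p at most 2e-05). These were 0.718 and -0.811 without the 2 libraries farthest on the share. In cohort 2 they were 0.733 and -0.935, both at a permutation p of 1e-05. Over the 8 libraries of cohort 3 they were 0.733 (permutation p = 0.0388) and -0.668 (permutation p = 0.0716), both at an adjusted p of 0.215. With Gm20721 itself, r was -0.299 in cohort 1 (permutation p = 0.00769, adjusted p = 0.00769) and -0.0871 without the 2 farthest libraries. Without the 3 libraries of highest striatal markers it was -0.622 (permutation p = 1e-05, adjusted p = 1.2e-05), and in cohort 2 it was -0.713 (permutation p = 0.0024, adjusted p = 0.0046), where rho was -0.102 (permutation p = 0.637). Without the same 3 libraries r was 0.545 with Gnas and -0.820 with the ratio. The libraries with the highest shares, GFP ZT12 cohort 2 replicate 1 at 5.63% and Q5A ZT12 cohort 2 replicate 1 at 5.39%, had the lowest log2 ratios, 4.74 and 4.78. A library in which more placed reads fell in gene rows thus had more reads in the Gnas row relative to Gm20721, and what links these measures was not tested.

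The rows most like each member over all 110 libraries, by Pearson's r of log2(normalised reads + 1) among the 6085 rows with a median of at least 20 reads, differed between the members. For Gm20721 they were RP24-239L16.3 (r = 0.903), Slc5a2 (0.895), RP23-201I4.11 (0.891), RP24-273G1.3 (0.890) and RP23-82I13.4 (0.886). Of these, Slc5a2, a kidney glucose transporter gene, is in the annotation used here, with 20.6% of its 2897 exon bases opposite exons of BC017158, and the other 4 are not in it. For Gnas they were Podxl2 (0.867), Resp18 (0.854), Flywch1 (0.802), Faim2 (0.792) and Ndn (0.770). Resp18 encodes a neuroendocrine secretory granule protein, and Ndn is an imprinted neuronal gene. Of these, Flywch1 had 25.1%, Podxl2 19.1% and Resp18 3.88% of exon bases opposite another gene's exons, and Faim2 and Ndn had 0. RP23-82I13.4 was also among the rows most like Nespas (r = 0.733, and 0.645 without the 3 libraries of highest striatal markers). Within cohort 1 the r values were 0.868 to 0.919 for the rows like Gm20721 and 0.713 to 0.848 for those like Gnas. Without the 3 libraries of highest striatal markers they were 0.864 to 0.920 for the rows like Gm20721 and 0.656 to 0.807 for those like Gnas. The r values share library depth, dissection and cohort across points.

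Rows named for genes around Gnas in its pathway were followed by lists fixed with earlier results of these data known. None of these rows was called between Q5A and controls over all ZT, against a background of 2 of 13891 rows (0.0144%). As for the members, which strand the list rows count was not tested. Median log2 differences by list were -0.07 for 6 receptors that couple to the stimulatory G protein, 0.07 for 16 rows of other G protein subunits with the chaperone Ric8b among them, 0.02 for 8 adenylyl cyclases, 0.08 for 14 cAMP effectors, 0.07 for 9 phosphodiesterases and 0.09 for 28 imprinted genes, beside 0.00 over all rows tested. In controls, rhythm was called by JTK in 0 of 6 receptors, 1 of 16 rows of the subunit list, 1 of 8 cyclases, 2 of 14 effectors, 1 of 9 phosphodiesterases and 4 of 28 imprinted rows, against the background of 14.5%. In Q5A, 1 phosphodiesterase row and none of the other lists' rows passed, against a background of 2.97% there.

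Among the receptors none passed, and the 2 with the most reads were Adcyap1r1, the receptor for the neuropeptide PACAP, with a median of 44.5 reads, and Htr7, a serotonin receptor, with 26. Gnb1, a G protein beta subunit, was called in controls (JTK adjusted p = 0.0187, exact null). Adcy1, a calcium-stimulated adenylyl cyclase, had the smallest p of these lists (JTK adjusted p = 0.000496, exact null) and was lowest at ZT8 and highest at ZT20 in controls. The effectors called were Crtc1, a coactivator of CREB (adjusted p = 0.0387), and Ppp1r1b, a phosphatase inhibitor controlled by protein kinase A (0.0217), both by the exact null. Ppp1r1b is also one of the striatum markers, and it was the row among the lists whose rhythm differed between Q5A and controls (adjusted p = 0.0221, edgeR). Its control mean at ZT12, where 2 of the 3 libraries of highest striatal markers fall, was 61.2 ± 128 normalised reads (SD, n = 13), and without those 3 the adjusted p of that difference was 0.723 (edgeR). Pde1b, a calcium-dependent phosphodiesterase, was called at an adjusted p of 0.0336 by the exact null.

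The imprinted rows called in controls were Rian, a maternally expressed noncoding RNA (JTK adjusted p = 0.00861), Nnat, the neuronatin gene (0.0261), Igf2r, the receptor that clears IGF2 (0.0261), and Magel2 (0.0291), each by the exact null. Nespas, on the same list, was at an adjusted p of 0.361 by the exact null. Without the 3 libraries of highest striatal markers, the 9 rows called in controls were at adjusted p-values of 0.000325 (Adcy1) to 0.0376 (Crtc1). Another 4 rows gained a call there by the exact null: Gnal (adjusted p = 0.00916) and Gnaz (0.0452), both G protein alpha subunits, and the imprinted Ndn (0.00879) and Blcap (0.0155). The subunit list thus held 3 called rows and the imprinted list 6 without these libraries, beside a background of 15.9%. In cohort 3 minus cohort 1, the lists had median log2 differences of -0.30 for the receptors, 0.17 for the subunits, -0.12 for the cyclases, 0.07 for the effectors, -0.24 for the phosphodiesterases and 0.08 for the imprinted rows, beside 0.01 over all rows. Called there were 1 receptor row downward, 2 rows of the subunit list upward, 1 cyclase row downward, 2 effectors upward and 1 downward, 1 phosphodiesterase row upward, and 3 imprinted rows upward and 3 downward, against the background of 21.4%. Prkaca, a catalytic subunit of protein kinase A, rose (0.65 ± 0.12, adjusted p = 2.70e-06, edgeR), and Prkar2a, a regulatory subunit, fell (-0.65 ± 0.16, adjusted p = 0.000638, edgeR), both chosen after their values were seen.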

How the data were processed

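RNA-seq was made from TMN tissue in 111 libraries, of which 1 pair differed by less than the sampling noise and was merged, leaving 110. The deposited values are raw read counts per gene row, which the authors made by aligning reads to GRCm38 with STAR (version 2.7.11b) and counting them with htseq-count (HTSeq 2.0.5; --stranded=yes, --mode=union, --type=exon, a minimum alignment quality of 10) on the Ensembl 93 annotation. The 5 rows for reads in no gene were left out of library sizes and tests. The 18 files tied to no sample in the labels were not used. The members and gene lists were chosen with earlier results of these data known. The study's own normalisation was by DESeq2 (1.44.0) size factors, which were recomputed here over the 9428 rows above 0 in every library.

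Groups came from the sample titles. Differences were tested with edgeR 4.0.16 (R 4.3.3; quasi-likelihood F test, TMM, Benjamini-Hochberg over all rows tested) after a filter with a minimum count of 10 and a minimum total of 15, at an adjusted p under 0.01. Rhythm was tested with a JTK_CYCLE test written in Python 3.11.15 with numpy 2.4.6 and scipy 1.17.1, at an adjusted p under 0.05. DESeq2 1.42.0 was an alternative. The main edgeR fits, the JTK test and the permutation test within ZT were checked on simulated data. DESeq2, edgeR with ZT as a factor and the permutation of correlations were not. Nothing was excluded except the merged pair. The named rows were the members, rows overlapping Gnas, the 5 rows most like each member, and, from each list, up to 4 rows past the threshold or otherwise the 2 with most reads. The replicate numbers of cohort 1 did not pair the libraries: of 616 pairs with the same number, 209 had a correlation of deviations over 0.1, with a mean of 0.0161 against 0.0209 for other pairs.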

Additional observations from a re-analysis of the deposited data

Results flagged for a closer look

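For every virus at every ZT (18 sets of 4 to 8 libraries), the highest and lowest library were checked by Dixon's gap for Gm20721, Gnas, Nespas and the log2 ratio of Gm20721 to Gnas. Of 72 sets of values 11 (15.3%) held a library far from the others, where chance flags about 1 in 20.

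Gm20721 was low in GFP ZT16 cohort 1 replicate 1, at 57569 normalised reads against 70715 to 77515 in the others, and in H3.3 ZT12 cohort 1 replicate 1, at 41613 against 70840 to 92990. The latter is one of the 3 libraries of highest striatal markers.

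Gnas was high in 3 libraries, all of cohort 3: H3.3 ZT4 replicate 1 at 1562 normalised reads against 842 to 1056 in its group, Q5A ZT12 replicate 1 at 1786 against 873 to 1263, and Q5A ZT4 replicate 1 at 1746 against 1005 to 1226.

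Nespas was high in GFP ZT8 cohort 1 replicate 4, at 5920 normalised reads against 1174 to 2802, and in H3.3 ZT4 cohort 1 replicate 2, at 4529 against 810 to 2014.

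The log2 ratio was high in GFP ZT16 cohort 1 replicate 5 (6.32 against 5.84 to 5.94) and GFP ZT8 cohort 2 replicate 1 (6.62 against 6.27 to 6.36). It was low in H3.3 ZT4 cohort 3 replicate 1 (5.33 against 6.14 to 6.39) and Q5A ZT12 cohort 2 replicate 1 (4.78 against 5.78 to 6.33).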

How the results depend on the processing

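Of 422 alternative values of the results on Gnas, Gm20721 and their ratio, 392 kept the direction and the side of the threshold of the reported value, 27 turned sign, 1 gained a call and 2 lost one. No value that was called turned sign. The Q5A differences over all ZT ran from -0.0740 to -0.00202 in Gm20721 and from 0.0364 to 0.0828 in Gnas. With the replicate block they were -0.0505 and 0.0485, and H3.3 minus GFP was 0.0194 in Gm20721. The block changed no call of either member and moved the rows called between Q5A and controls from 2 to 8. Of 78 libraries of cohort 1, 16 correlated best with their own number.

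Signs turned in the settings given here, and the causes were not tested. Not all of the reported values lay near 0. Gnas was at 0.11 ± 0.21 (SE) in H3.3 minus GFP at ZT16 and at -0.15 ± 0.19 in Q5A minus controls at ZT20. Nespas was at 0.31 ± 0.31 in Q5A minus controls at ZT4. H3.3 minus GFP over all ZT was -0.00515 for Gm20721 in cohort 1 only. For Gnas it was -0.00375 without the filter, -0.0216 without TMM, -0.0183 with placed reads as library size, -0.0895 with cohort as a covariate, -0.0753 in cohort 1 only and -0.0889 with the replicate block. For Gm20721 at single times, H3.3 minus GFP at ZT4 was -0.0122 without the filter, and Q5A minus controls was -0.0294 at ZT4 with DESeq2, -0.111 at ZT4 in cohort 1 only and -0.0760 at ZT20 in cohort 1 only. Leaving out each replicate number gave -0.0943 to 0.0313 at ZT0, -0.0539 to 0.0803 at ZT4 and -0.0600 to 0.0333 at ZT8 for H3.3 minus GFP, and -0.0681 to 0.0380 at ZT0, -0.0356 to 0.0731 at ZT4 and -0.0455 to 0.0874 at ZT20 for Q5A minus controls. For Gnas, H3.3 minus GFP was -0.0925 at ZT4 and -0.217 at ZT16 in cohort 1 only and -0.188 to 0.0361 at ZT0 without single replicates. Q5A minus controls was -0.0282 to 0.0618 at ZT0 and -0.272 to 0.0138 at ZT20 without single replicates, and 0.00437 at ZT20 without the 3 libraries of highest striatal markers, a setting chosen after seeing the data.

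Nespas, in no case called between viruses, turned sign in cohort 1 only for Q5A minus controls over all ZT (-0.0832), at ZT0 (0.172), ZT4 (-0.177) and ZT20 (-0.273) and for H3.3 minus GFP at ZT4 (0.0263). Without single replicates it ran from -0.569 to 0.138 at ZT0, from -0.247 to 0.0649 at ZT8 and from -0.141 to 0.300 at ZT20 for Q5A minus controls, from -0.208 to 0.0519 at ZT4 for H3.3 minus GFP and from -0.0544 to 0.132 for cohort 2 minus cohort 1.

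The cohort 3 difference of Gm20721 lost its call without the filter (0.452) and ran from 0.402 to 0.483 without single replicates, and its rhythm in GFP gained one with ZT as a factor (adjusted p = 0.0304, edgeR). Counts of rows called moved more. Q5A minus controls gave 0 with DESeq2, 6 without the filter, 12 with cohort as a covariate and 27 in cohort 1 only, beside 2. H3.3 minus GFP gave 11, 10 and 7 with cohort as a covariate, in cohort 1 only and with the replicate block, beside 0. Q5A minus H3.3 gave 0 with DESeq2 and 1 under those 3 settings, beside 2. Without replicate 3, both Q5A counts were 0. Cohort 2 minus cohort 1 gave 468 without the filter, 403 without TMM and 662 with placed reads, beside 261. The rhythm difference gave 0 with DESeq2, 98 without the filter, 778 in cohort 1 only, 6 with the replicate block and 2 without replicate 3, beside 17. Rhythmic rows numbered 1004 in Q5A and 773 in GFP in cohort 1 only, beside 412 and 1287, and without single replicates reached a low of 1191 for controls, 643 for GFP, 321 for H3.3 and 202 for Q5A.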
